A study of Homo sapiens with 30 samples.

Results

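MAGI1, ATXN1, CCDC88C, CDKAL1, DAB1, EIF3D, ERC2, FBXL19, GNAI3 and ITGA9 are protein-coding genes that each held at least 2 separate nuclear off-target regions of mitochondrial base editors. They were chosen by the positions of those regions, so their region counts describe the choice and are no finding in themselves. Regions of the 4 deposited lists were joined where they shared at least 1 bp, and a region belonged to a gene when its midpoint lay within the gene's bounds on hg38. By this rule 23 of 19821 protein-coding genes on the 22 autosomes and X held 2 or more distinct regions, which is 0.116% of genes, and 555 genes (2.8%) held 1 or more. The 10 named genes are part of those 23, and how they were picked from the 23 is not given in the sources used here. Together they held 21 of the 1133 distinct regions, 3 in MAGI1 and 2 in each of the others.

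The regions came from Detect-seq of transfected HEK293T, an immortalised line that derives from the kidney of a human embryo. The series held 30 libraries, and the 4 lists are those of the editors aimed at the mtDNA sites ND4, ND5.1, ND5.3 and ND6, with 83, 539, 611 and 716 regions. Each editor carries the split parts of the deaminase DddA on a left and a right TALE array, in the orientation labelled L1397N for ND5.1 and ND6, L1397C for ND5.3, and both for ND4. The sample descriptions name the ND4 list for 10 libraries, the ND5.1 list for 8, the ND6 list for 9 and the ND5.3 list for 2. Those of ND4, ND5.1 and ND6 each include 2 plain editor pulldowns, 1 input library, 1 with dead DddA and 2 labelled Lipo2000. Each also includes 2 that lack 1 TALE array, left or right, and have an added mitochondrial targeting sequence (MTS). Those of ND4 further include 2 labelled L1397C. ND6 is also named by the library of TALE-free DddA parts with an added MTS, and the GFP library, labelled untreated, names no list. The lists give 1 row per region for a whole list, so no value has an error between replicates, no comparison between libraries could be made, and the depth per library is unknown.

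DddA deaminates cytosine to uracil in double-stranded DNA, with a known preference for a cytosine that follows a thymine (TC). Its parts are inactive apart and regain activity when they meet, which the TALE arrays bring about at the intended mtDNA site. Detect-seq replaces uracil with labelled nucleotides and pulls down the fragments, so a region marks a short stretch where uracil was found. A gene with several such regions was marked at more than 1 place in its body. In CDKAL1, ERC2, FBXL19 and ITGA9 no list held more than 1 of the places. Their listed marks thus came from libraries of different editors and not from the same cells. That also holds for the ND6 region of MAGI1 beside its other regions. Where 1 list held several places of a gene, it does not show whether they were marked in the same cells.

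EIF3D, which encodes the cap-binding subunit of the translation initiation factor eIF3, was the shortest of the 10 genes, at 18.3 kb (chr22:36510855-36529166, minus strand). Its 2 regions were 12.9 kb apart, which is 70.2% of the gene. The region at chr22:36511168-36511185 was 313 bp inside the 3′ bound and was held by ND5.1, ND5.3 and ND6. The authors' signal value there, a number per region with no stated normalization, was 5.62 in ND5.1 (rank 488 of 539, rank 1 being the highest) and 11.6 in ND6 (rank 273 of 716). The region at chr22:36524050-36524072 lay 5.1 kb from the gene's start and was in ND5.1 alone, with a signal of 4.32 (rank 529). Both were on the gene's own strand.

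A further region lay just outside the bounds of EIF3D, in the promoter, and was therefore not counted by the rule. It was at chr22:36529261-36529277, 95 to 111 bp upstream of the start, in ND6 alone, of class IND, on the gene's strand, with a signal of 5.29 (rank 661). It is shown because it is the only region in any of the 18 promoter windows (250 bases before to 50 after a start) that the RefSeq table on GRCh38.p14 holds for 9 of the 10 genes. The 250 bases before the start (chr22:36529167-36529416, minus strand, 5′ to 3′) are printed with the region in capitals.
EIF3D promoter: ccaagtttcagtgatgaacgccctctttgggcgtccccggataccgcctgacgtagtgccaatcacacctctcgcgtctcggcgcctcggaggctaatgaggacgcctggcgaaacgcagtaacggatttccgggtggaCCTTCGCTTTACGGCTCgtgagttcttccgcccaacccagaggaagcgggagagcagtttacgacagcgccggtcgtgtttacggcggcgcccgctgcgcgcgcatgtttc

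The capitals begin and end with a cytosine and hold 7 cytosines, 2 of which follow a thymine on the region's strand. Of all 17 bp stretches in promoter windows of protein-coding genes, 26.3% held 2 or more TC dinucleotides on the strand read. Promoter sequence was also used to read the lists' coordinates. All 38 regions of class IND and all 9 of class IND.Extend that lay whole within a promoter window began and ended with a cytosine on their own strand when start and end were both counted from 1. The 2 regions of class DL in such windows did not. With starts counted from 0, 29 of these 49 regions had a cytosine at both ends. Counted from 1, 43 of the 49 opened on the cytosine of a TC, whose thymine lay just before the region. The EIF3D promoter region was not among those 43, since an adenine precedes its opening cytosine. Across the genome, 57 of the 15812 protein-coding genes with a promoter window (0.360%) had a region in it.

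GNAI3 and FBXL19 were also short. GNAI3 encodes an inhibitory G protein alpha subunit, and spans 51.6 kb (chr1:109548615-109600195, plus strand). Its regions at chr1:109567835-109567845 and chr1:109573908-109573919 were 6.06 kb apart, on the gene's strand, and both in ND6 alone. The former was of class DL with a signal of 7.98 (rank 430) and the latter of class DR with a signal of 3.71 (rank 714 of 716). The files do not define these classes. For both, the file gives a further interval that overlaps the region, chr1:109567817-109567851 and chr1:109573909-109573924. GNAI3 was the gene among the 10 whose regions were all of classes DL and DR.

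FBXL19 encodes an F-box protein with a zinc finger that binds unmethylated CpG sites, and spans 25.9 kb (chr16:30922851-30948783, plus strand). Its regions at chr16:30935304-30935321 and chr16:30935335-30935350 had only 13 bases between them. The former was in ND5.3 alone, which gives neither strand nor signal. The latter was in ND6 alone, of class IND on the strand opposite to the gene, with a signal of 9.73 (rank 332). Joining neighbours within 1 kb made them 1 region, and FBXL19 then left the set. Such joining removed 3 regions in the whole genome, so pairs this close were rare in the lists.

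In DAB1 and ATXN1 both regions were held by more than 1 list. DAB1, the adaptor of Reelin signalling in neuronal migration, was the longest of the 10 genes, at 1552 kb (chr1:56994778-58546726, minus strand), yet its regions at chr1:58155528-58155551 and chr1:58163147-58163170 were only 7.60 kb apart, or 0.489% of the gene's length. Both were 24 bp wide, of class IND and on the strand opposite to the gene. The former was in ND5.1, ND5.3 and ND6, with signals of 8.21 in ND5.1 (rank 390) and 11.9 in ND6 (rank 263). The latter was in ND5.3 and ND6, with a signal of 15.9 in ND6 (rank 182). The pair lay 87.3 to 95.0 kb from the nearest of the starts that RefSeq lists for the gene.

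ATXN1 encodes ataxin-1, a transcriptional corepressor whose expanded polyglutamine tract causes a spinocerebellar ataxia, and spans 462 kb (chr6:16299112-16761460, minus strand). Its regions at chr6:16316819-16316855 and chr6:16332295-16332304 were 15.4 kb apart near the 3′ end of the gene, at 96.2% and 92.8% of its length from the 5′ end. Both were of class IND on the gene's strand. As in DAB1, ND5.1, ND5.3 and ND6 held 1 region of the pair, and ND5.3 and ND6 the other. The signal of the former was 6.70 in ND5.1 (rank 456) and 17.8 in ND6 (rank 153), and that of the latter 8.27 in ND6 (rank 417).

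CCDC88C held the region of highest rank among the 10 genes. The gene encodes Daple, a Dishevelled-binding protein of Wnt signalling, and spans 146 kb (chr14:91271323-91417820, minus strand). Its region at chr14:91286617-91286642 was in ND5.1, ND5.3 and ND6, with signals of 38.8 in ND5.1 (rank 33) and 46.0 in ND6 (rank 24). Its other region, at chr14:91355125-91355140, was 68.5 kb away, in ND6 alone and on the other strand, with a signal of 6.02 (rank 591). Both were of class IND, so regions at ranks 24 and 591 of 716 in ND6 stood in 1 gene.

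MAGI1 was the only protein-coding gene of the series with 3 distinct regions. It encodes a scaffold protein of cell junctions and spans 685 kb (chr3:65353526-66038918, minus strand). The region at chr3:65586326-65586351 was of class IND.Extend in ND5.1, with a signal of 31.1 (rank 54). At chr3:65858636-65858650, 272 kb further, a region of class IND was again in ND5.1, with a signal of 6.91 (rank 447). At chr3:65952248-65952258, another 93.6 kb on, a region of class DL was in ND6, with a signal of 4.22 (rank 704). No region of MAGI1 was in more than 1 list, and its 3 regions came from 2 lists and 3 classes. The last of them also lay within MAGI1-IT1, a long noncoding RNA gene inside MAGI1.

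ITGA9, an integrin alpha chain gene of 371 kb (chr3:37452141-37823507), held a class DR region at chr3:37551736-37551749 in ND5.1, with a signal of 6.69 (rank 459). Its other region, at chr3:37779732-37779746, was 228 kb away, of class IND in ND5.3 and ND6, with an ND6 signal of 9.20 (rank 372), and also lay within the noncoding gene ITGA9-AS1. The regions were on opposite strands.

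CDKAL1 and ERC2 held regions that no list had together. CDKAL1, a methylthiotransferase that modifies a lysine tRNA, spans 698 kb (chr6:20534457-21232404, plus strand). It held a class DL region of ND6 at chr6:20630850-20630860, with a signal of 6.45 (rank 547), and a class IND region of ND5.1 at chr6:20848491-20848523, with a signal of 6.48 (rank 465). They were 218 kb apart, both opposite to the gene's strand. ERC2, a scaffold of the presynaptic active zone, spans 960 kb (chr3:55508311-56468467, minus strand). Its class DL region of ND6 at chr3:56188761-56188771 had a signal of 6.68 (rank 523), and its other region, 115 kb away at chr3:56303785-56303795, was in ND5.3 alone.

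**Figure D1:**
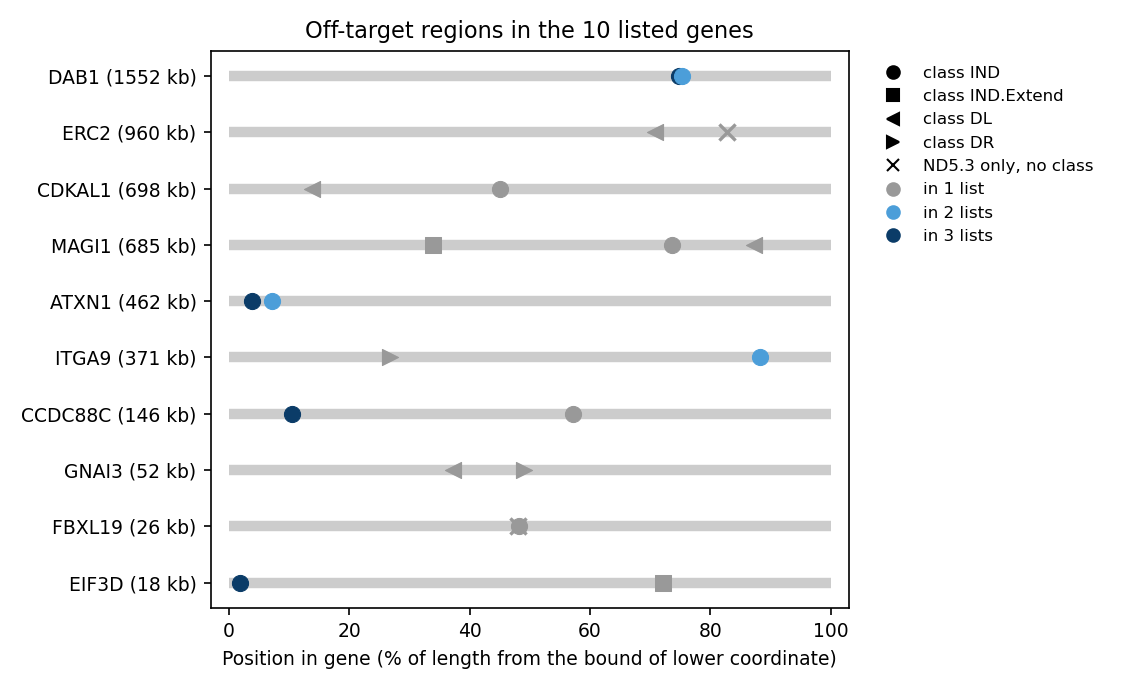
Position of each off-target region in the 10 genes, as a percentage of gene length from the bound of lower coordinate, with genes ordered by length. Shape gives the class and colour the number of lists. The DAB1 pair (7.60 kb apart) and the FBXL19 pair (13 bases apart) nearly coincide, while the EIF3D and ITGA9 pairs are spread along their genes.

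Spacing and strand differed widely among the genes. Neighbouring regions within a gene were 13 bp to 272 kb apart, with a median of 68.5 kb over 11 gaps. In DAB1, FBXL19 and GNAI3, 3 of the 10 genes, a gap was 10 kb or less. All regions of a gene were on 1 strand in ATXN1, CDKAL1, DAB1, EIF3D and GNAI3, and on both in MAGI1, CCDC88C and ITGA9. In ERC2 and FBXL19 the ND5.3 region has no strand. Where both strands were known, 10 regions lay on the gene's strand and 7 opposite to it. Of the 19 regions in genes with a known strand, 14 lay nearer the 5′ bound and 5 nearer the 3′ bound. Over all 23 genes that met the rule these counts were 24 and 15, so the other genes did not add to that lean. Apart from the EIF3D region 313 bp from its 3′ bound, none of the 21 lay within 1 kb of a bound of its gene. Of the 19, the nearest to a start listed for its gene was the EIF3D region 5.1 kb away. Exons and introns were not analysed here.

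ND6 held 14 of the 21 regions and at least 1 in every one of the 10 genes, ND5.1 and ND5.3 held 9 each, in 7 genes each, and ND4 held none. The ND6 share of 66.7% was near the 63.1% of all distinct regions that ND6 held, and the ND5.1 share of 42.9% near its 47.2%. The ND5.3 share was 42.9% beside 53.9% of all regions, and ND4 held 7.15% of all regions. ND6 alone gave 2 regions in ATXN1, CCDC88C, DAB1 and GNAI3, beside 9 such genes in the genome (0.0454%). ND5.1 alone gave 2 in MAGI1 and EIF3D, beside 8 in the genome (0.0404%). ND5.3 alone gave 2 in ATXN1 and DAB1, beside 4 in the genome (0.0202%), and the ND4 list had no gene with 2 or more (0%). In CDKAL1, ERC2, FBXL19 and ITGA9 the count of 2 arose only when lists were joined. No region of the 10 genes was in all 4 lists, 4 were in 3 lists, 3 in 2 and 14 in 1. In all, 7 of 21 (33.3%) were in at least 2 lists, against 512 of all 1133 distinct regions (45.2%) and 205 of the 497 regions in genes with only 1 (41.2%). These shares were not tested, since the rule used the positions.

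By class, 11 of the 21 regions were IND, 2 IND.Extend, 4 DL and 2 DR, and 2 were in ND5.3 alone and have no class. Class IND made up 52.4% of the 21, 53.2% of the 47 regions in all 23 genes that met the rule and 58.3% of all distinct regions. Class IND.Extend made up 9.52% of the 21, but 23.4% of the 47 and 17.4% of all. Classes DL and DR together made up 28.6% of the 21, against 15.0% of all distinct regions and 16.1% of the regions in genes with only 1. Over all 23 genes, which include the 10, they made up 9 of 47 regions (19.1%). Of these 9, 6 were among the 21 regions of the 10 genes, so the 19.1% rests mostly on the 10. These few regions were not tested. Of the 10 genes, 5 held a DL or DR region, namely MAGI1, CDKAL1, ERC2, GNAI3 and ITGA9. Class IND alone accounted for both regions in ATXN1, CCDC88C and DAB1.

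Signals in the 10 genes were mostly in the lower part of the ND5.1 list and spread over the ND6 list. In ND5.1, 7 of the 9 regions were below the list's median of 10.99, and they ranged from 4.32 in EIF3D to 38.8 in CCDC88C with a median of 6.70. The CCDC88C and MAGI1 regions at ranks 33 and 54 were the exceptions. In ND6, 8 of 14 regions were below the list's median of 9.33, with a range from 3.71 in GNAI3 to 46.0 in CCDC88C and a median of 8.73. Levels were not compared between lists.

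Gene length was set beside the counts, as the question of whether length alone gives that many. The 1133 distinct regions over 2849 Mb of the genome make 0.398 regions per Mb, or 1 in 2.51 Mb. Multiplied by length, this gave 0.617 regions for DAB1, 0.382 for ERC2, 0.278 for CDKAL1, 0.273 for MAGI1, 0.184 for ATXN1, 0.148 for ITGA9, 0.0583 for CCDC88C, 0.0205 for GNAI3, 0.0103 for FBXL19 and 0.00728 for EIF3D. None reached 1 (with the density of its own chromosome DAB1 came to 1.01), and they summed to 1.98 regions against the 21 found. Since genes were chosen for holding 2 or more, the excess over these figures follows from the choice. The ratio of regions found to those from length ran from 3.24 in DAB1 to 275 in EIF3D.

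Over all protein-coding genes the comparison does not depend on that choice. If regions fell evenly and independently (Poisson), the same density would give 27.4 genes with 2 or more regions, and 23 were found. For 3 or more it would give 2.58 genes, and MAGI1 alone was found. For 1 or more it would give 483 genes, and 555 were found. By list, the same calculation gave 11.7 genes with 2 or more in ND6 (9 found), 6.77 in ND5.1 (8 found), 8.72 in ND5.3 (4 found) and 0.169 in ND4 (0 found). The number of genes with several regions was thus near or below what length gives. No test was made of these differences.

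More short genes and fewer long genes held several regions than length gives. Of the 16471 genes under 100 kb, 8 held 2 or more regions, among them EIF3D, FBXL19 and GNAI3, against 1.65 by length. Of the 3350 genes of 100 kb and over, 15 did, against 25.7 by length. In the class over 1000 kb, 2 of 69 genes did (DAB1 and RANBP2), against 7.49. RANBP2 spans 1123 kb by the gene bounds used, and its region at chr2:109246525-109246552 also lay within the protein-coding gene SH3RF3. Between 300 and 1000 kb, the class of MAGI1, ATXN1, CDKAL1, ERC2 and ITGA9, 7 of 702 genes did, against 12.5. Between 100 and 300 kb, the class of CCDC88C, 6 of 2579 did, against 5.72. The density of regions fell in step, from 1.22 per Mb of gene length in genes under 10 kb and 0.907 at 10 to 30 kb. It was 0.552, 0.405, 0.293 and 0.167 in the longer classes. For these densities a region was counted in every gene that held it.

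Other long genes put the longest members in context. Only 15 protein-coding genes were at least as long as DAB1, and 11 of them held no region, 3 held 1 and DAB1 alone held 2. At least as long as MAGI1 were 178 genes, of which 140 held none, 33 held 1 and 5 held 2 or more. Of a set of 43 other long genes, some of them at common fragile sites, 7 held a region (WWOX, CNTNAP2, CSMD3, RBFOX1, IL1RAPL1, NAALADL2 and THSD7B) and none held 2. Their length gave 23.8 regions. Long genes in general also fell short of length. Of all 69 genes over 1000 kb, 14 (20.3%) held 1 or more regions, against 28.9 by length. Between 300 and 1000 kb, 92 of 702 genes (13.1%) did, against 122. Among the 43, RBFOX1, a splicing regulator gene of 2474 kb, held 1 region, with ranks of 138 in ND5.1 and 62 in ND6. WWOX, an oxidoreductase gene of 1113 kb, held 1 with ranks of 50 and 58. The set of 61 relatives of the 10 genes (other eIF3 subunits, integrin alpha chains, F-box, MAGI, ERC, DAB and G alpha genes) held regions in 2, against 2.68 regions by length. Those were EIF3H, with a class DR region of ND6 at rank 711, and ITGA5, with a class IND region in ND5.1, ND5.3 and ND6 at ranks 186 and 123. No relative of MAGI1, DAB1, ERC2, GNAI3, CCDC88C, ATXN1, CDKAL1 or FBXL19 in that set held any.

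The 13 other genes that met the rule had 2 regions each and included PTK7, a pseudokinase of Wnt signalling, SMYD2, a lysine methyltransferase, RANBP2, a nucleoporin, and KANSL1, a subunit of a histone acetyltransferase complex. The rest were CCDC141, FOXN3, GRAMD1B, JAZF1, LYPLAL1, NUB1, OTUD7B, RIPOR1 and STUM. Their median length was 195 kb, against 417 kb for the 10 and 95.2 kb for the 532 genes with exactly 1 region. In 17 of the 23 genes, and 6 of the 10, a list alone held 2 of the regions. KANSL1 and OTUD7B held pairs of class IND.Extend in ND5.1, and GRAMD1B and JAZF1 held pairs of class IND that ND5.3 and ND6 had in common, as in ATXN1 and DAB1. SMYD2 had the closest pair after FBXL19, with 1092 bp between regions on opposite strands. Widening gene bounds by 1 kb, which brought the EIF3D promoter region in, added CDC40, FDXR, RUFY4, STX8 and WASF1, which stood just outside the rule.

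The set changed with the lists and classes used. Only ATXN1 kept 2 regions under all 11 other settings tried. The settings that took class IND or the upper part of the signal kept every ND5.3 region, which has no class or signal. With the upper part of the signal, the ATXN1 region at chr6:16332295-16332304 stayed only through ND5.3. Its ND6 signal of 8.27 was below the ND6 median of 9.33. Without ND6, CCDC88C, CDKAL1, ERC2, FBXL19 and GNAI3 left the set, and without ND5.1, MAGI1, CDKAL1, EIF3D and ITGA9 did. With only the class IND regions and the ND5.3 list, ATXN1, CCDC88C, DAB1 and FBXL19 were left of the 10. FBXL19 stayed only because its ND5.3 region, which has no class, was kept. Joining neighbours within 10 kb took out DAB1, FBXL19 and GNAI3.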

How the data were processed

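The deposited files are 4 lists of regions on hg38, 1 per editor target. The submitters' processing notes name Picard, SAMtools, Bowtie2 and cutadapt without versions. How regions were called and chosen is not given in the sources used. The score used is the signal value that the authors deposited per region in 3 lists, with no stated normalization, and it was ranked within a list only. ND5.3 gives positions alone.

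Regions sharing 1 bp were joined into 1133 (6 of them join 2 unequal intervals). Gene bounds were those of RefSeq on GRCh38.p14 (58419 of its 59792 genes, leaving out scaffolds and chromosomes other than the 22 autosomes and X), and gene strands and starts from RefSeq promoter windows. Starts were planned to be read as counted from 0, but promoter sequence at regions of classes IND and IND.Extend fitted a count from 1. All other regions were read the same way, and reading starts from 0 changed no count. Density excluded gene-free stretches over 2 Mb. Python 3.11.15, pandas 2.3.3 and numpy 2.4.6 were used. Joining of regions, their assignment to genes and the calculation from length were tested on simulated regions, the last with gene-free stretches kept in.

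The genes and gene lists were chosen with earlier results of these data known, so no test was run. All genes that meet the rule are named, the 10 with every region, and relatives and long genes where they hold a region.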

Additional observations from a re-analysis of the deposited data

How the results depend on the processing

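The 23 genes with 2 or more regions and the 10 named ones among them were counted again under 11 other settings. Only any overlap with the gene, omission of ND4 and counting starts from 0 left both counts at 23 and 10. With class IND and the ND5.3 list they were 7 and 4, and with the upper part of each list's signal and the ND5.3 list 7 and 3. Both settings kept all ND5.3 regions, since these have no class or signal. Without ND5.1, which left 890 distinct regions, they were 11 and 6. Without ND6, which left 915, they were 14 and 5. The regions that length gives for the 10 genes ranged from 1.90 to 2.40 over 3 other densities. No paired analysis was possible because no value per replicate stands in the files. Depth per library is unknown, so what depth limits could not be measured.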
